A study of Mus musculus with 2 samples.

Results

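The 7 genes *Ngb*, *Eva1a*, *Sorl1*, *Nnat*, *Tceal6*, *Wfdc1* and *Enho* were selected on their higher counts in lung myofibroblasts of a mouse with *Hhip* deletion than in those of a control mouse. All 7 were found among the 32285 genes of the count tables. That contrast chose them, so their ratios in myofibroblasts are a description, with no test. The study took lung cells at P14 from 2 mice, both *Gli1creERT/+: Hhipflox/flox*. The control mouse was given oil and the *Gli1 HHIPCKO* mouse tamoxifen, which activates Cre in cells that express *Gli1*, so both carry Cre and the floxed allele. Sorted stromal and epithelial cells were mixed at 3:1. Each condition has a single mouse, so differences between mice have no measured error, and the intervals, at 95%, cover counting error only.

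HHIP binds hedgehog ligands at the cell surface and restrains the pathway, whose activity in lung stroma is read from targets such as *Gli1*. Myofibroblasts are contractile stromal cells of the growing lung, found around alveoli (ALMFs) and around alveolar ducts (DMFs). The 7 genes do not form a known pathway: they encode a globin, membrane proteins of the endoplasmic reticulum and of sorting compartments, a transcription elongation factor-like protein and a pair of secreted products.

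The control library held 43291709 unique molecular identifiers (UMIs) in 10999 cells, with a median of 3531 per cell. The *Gli1 HHIPCKO* library held 52338969 UMIs in 12350 cells, with a median of 3720. The libraries shared 193 barcode sequences. The mice differed in sex-linked genes, with 0 UMIs of *Xist* in control and 1298 in *Gli1 HHIPCKO* myofibroblast-like cells, and with 480 and 0 UMIs of the Y-linked *Eif2s3y*. Sex and deletion therefore cannot be told apart.

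Cells were clustered and clusters were named from marker genes, with "-like" added. DMF-like cells numbered 1023 in control and 1149 in *Gli1 HHIPCKO*, but 1 cluster held 1004 and 16 of these and another held 19 and 1133. ALMF-like cells numbered 1243 and 65. An unnamed cluster led by *Lnx1* and *Ddit4* held 83 control and 1016 *Gli1 HHIPCKO* cells, and its best score was for ALMFs at 0.24, below the 0.3 needed for a name. Another, led by the immediate early genes *Junb*, *Ier3*, *Egr1* and *Fos*, held 449 and 615 cells and scored 0.38 for DMFs and 0.32 for ALMFs. Cells without a named class made up 11.6% of control and 22.0% of *Gli1 HHIPCKO* cells. Library and cell state are thus not separated within the DMF-like class, and few *Gli1 HHIPCKO* cells carry the ALMF name.

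The deleted gene was examined first. *Hhip* had 2473 counts per 1000000 UMIs of the class (CPM) in control DMF-like cells and 457 CPM in those of *Gli1 HHIPCKO*, for a log2 ratio of -2.44 (-2.52 to -2.36). That direction is the one the labels give. Red cell-like cells, which should lack *Hhip*, had 113 and 42.9 CPM, the background level. AT2-like cells, epithelial cells of the alveolus, lay below it, with 61.4 and 16.5 CPM. The log2 ratio was below 0 in 13 of 13 named classes, red cell-like and AT2-like cells among them, and is not read as a change of expression in each. The hedgehog target *Gli1* had 7 UMIs in control and 109 in *Gli1 HHIPCKO* DMF-like cells.

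In DMF-like cells all 7 genes had at least 50 UMIs over both libraries, although in control alone only *Sorl1*, *Nnat* and *Wfdc1* did. A log2 ratio of at least 1, the fold used throughout, was reached by 6 of 7. Of all 9588 genes with 50 UMIs there, 2.50% passed that fold upward. The contrast chose the members, so nothing is read from the gap. The median log2 ratio was 2.95 for the members and 0.01 for all those genes. Shares of cells with a UMI depend on depth, which had a median of 2445 UMIs in control and 2841 in *Gli1 HHIPCKO* DMF-like cells. They are therefore also given with each cell thinned to 2000 UMIs, which kept 736 and 931 cells and left out 287 and 218 shallower ones.

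*Ngb* (ENSMUSG00000021032; chromosome 12, 87097531 to 87102539 of GRCm38), which encodes neuroglobin, an oxygen-binding globin best known from neurons, had 36 UMIs (14.0 CPM, 9.81 to 19.4) in control DMF-like cells and 565 UMIs (167 CPM, 153 to 181) in *Gli1 HHIPCKO*. A UMI of *Ngb* was found in 3.13% and 31.9% of these cells, and in 2.58% and 25.6% after thinning. Its log2 ratio was 3.57 (3.09 to 4.10). The *Gli1 HHIPCKO* level stood far above the control level, and the intervals of the levels do not overlap. *Cygb*, the other measured globin of a list of 4, was lower in *Gli1 HHIPCKO* myofibroblast-like cells (ALMF-like and DMF-like together), with 322 and 124 CPM. That sum mixes makeup of the class with level per cell, and *Cygb* was not examined in DMF-like cells alone.

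*Tceal6* (ENSMUSG00000031409; chromosome X, 135208687 to 135210687), a gene of the transcription elongation factor A-like family, was nearly absent from control DMF-like cells, with 8 UMIs (3.11 CPM, 1.34 to 6.13) in 0.782% of cells. In *Gli1 HHIPCKO* it had 185 UMIs (54.7 CPM, 47.1 to 63.1) in 11.9% of cells, and thinned shares were 0.543% and 8.92%. Its log2 ratio of 4.13 (3.13 to 5.37) was the highest point value of the 7 in DMF-like cells, with an interval that overlaps those of *Ngb*, *Eva1a* and *Wfdc1*. The gene is X-linked. X-linked genes as a group had a median log2 ratio of 0.06 over 307 genes, beside 0.01 over 9257 autosomal genes. The part of sex in the *Tceal6* ratio was not tested.

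*Eva1a* (ENSMUSG00000035104; chromosome 6, 82041043 to 82093099), whose product sits in the endoplasmic reticulum and lysosome and is tied to autophagy, had 11 UMIs (4.28 CPM, 2.14 to 7.66) in control and 155 UMIs (45.8 CPM, 38.9 to 53.6) in *Gli1 HHIPCKO* DMF-like cells. It was found in 1.08% and 11.6% of cells, and in 0.543% and 8.49% after thinning. Its log2 ratio was 3.42 (2.54 to 4.45), with levels that do not overlap. Apart from *Eva1a*, 0 of 12 measured genes of the EVA1 family and core autophagy passed the fold in myofibroblast-like cells. That is near the 3.62% of all genes, and nothing is read from it. The median of the 13 genes with *Eva1a* was -0.04.

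*Wfdc1* (ENSMUSG00000023336; chromosome 8, 119666365 to 119688222), a secreted protein with a WAP domain, had 88 UMIs (34.2 CPM, 27.5 to 42.2) in control and 897 UMIs (265 CPM, 248 to 283) in *Gli1 HHIPCKO* DMF-like cells. It was found in 8.02% and 50.8% of cells, and in 6.39% and 41.8% after thinning, at a log2 ratio of 2.95 (2.64 to 3.28). The *Gli1 HHIPCKO* cells were thus high for *Wfdc1* and the control cells low, with no overlap of the levels.

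*Nnat* (ENSMUSG00000067786; chromosome 2, 157560078 to 157562522), an imprinted gene for a small membrane protein of the endoplasmic reticulum, had 249 UMIs (96.9 CPM, 85.2 to 109.7) in control and 2263 UMIs (669 CPM, 641 to 697) in *Gli1 HHIPCKO* DMF-like cells, the most UMIs of the 7 in both libraries. Its share of cells was 13.5% and 55.3%, and 11.8% and 49.9% after thinning, at a log2 ratio of 2.79 (2.60 to 2.98). The levels do not overlap.

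*Sorl1* (ENSMUSG00000049313; chromosome 9, 41964720 to 42124297), a sorting receptor of the VPS10 family, had 177 UMIs (68.9 CPM, 59.1 to 79.8) in control and 524 UMIs (155 CPM, 142 to 169) in *Gli1 HHIPCKO* DMF-like cells, at a log2 ratio of 1.17 (0.92 to 1.42). It was found in 14.2% and 33.3% of cells, and in 11.7% and 24.3% after thinning. *Sorl1* was the member just inside the fold. *Enho* (ENSMUSG00000028445; chromosome 4, 41638144 to 41640324), which encodes the secreted peptide adropin, had 35 UMIs (13.6 CPM, 9.49 to 18.9) and 83 UMIs (24.5 CPM, 19.5 to 30.4). Its log2 ratio of 0.85 (0.26 to 1.46) lay just outside the fold, with shares of 3.42% and 6.88%, and 2.72% and 4.73% after thinning. Under the alternatives the ratio of *Enho* ran from 0.83 to 1.36, so this call changes with the processing. The levels of both genes were higher in *Gli1 HHIPCKO* without overlap, by less than those of the other members.

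**Figure D1:**
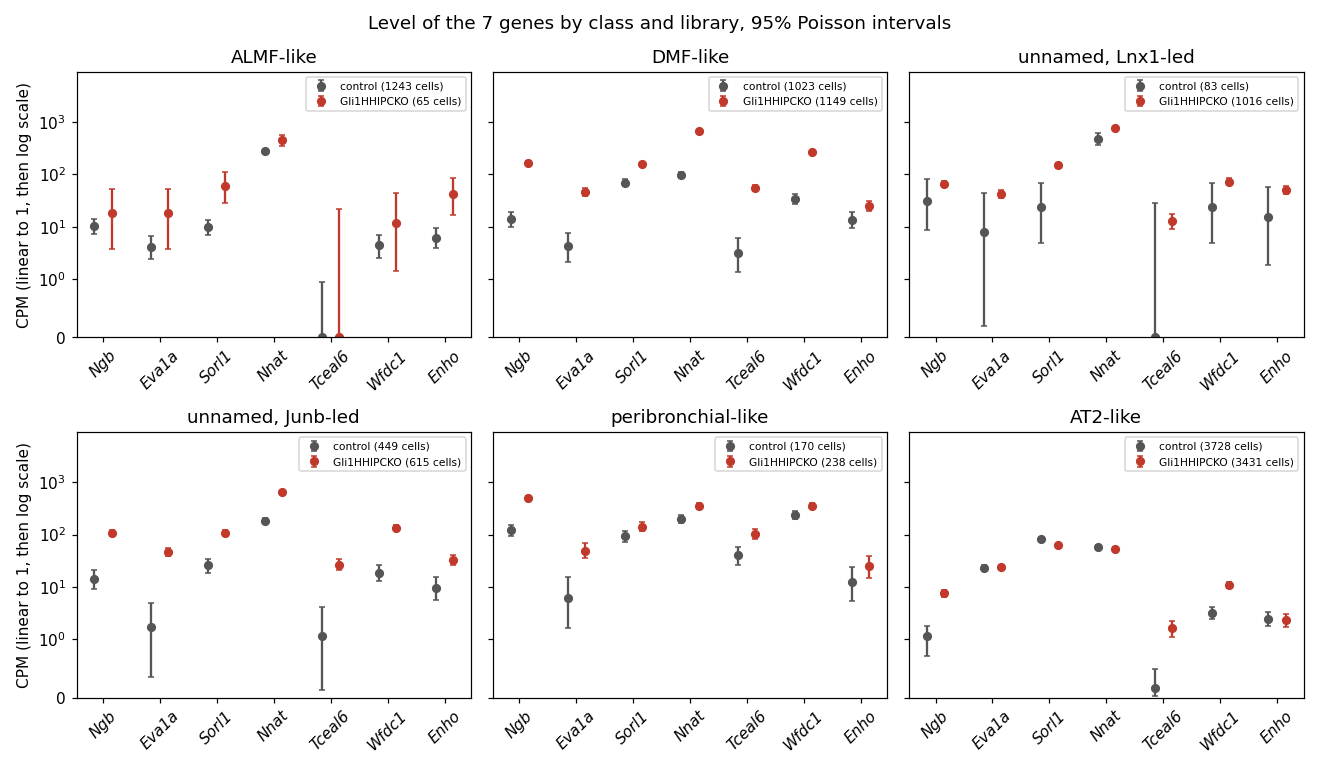
Level of the 7 genes (CPM, linear up to 1 and logarithmic above) in 6 cell populations, as points with 95% Poisson intervals for control (grey) and *Gli1 HHIPCKO* (red). In DMF-like cells *Nnat* sits at 96.9 and 669 CPM, and in ALMF-like cells the 65 *Gli1 HHIPCKO* cells leave wide intervals.

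ALMF-like cells gave a different count. Only *Nnat* had 50 UMIs there, and it did not pass the fold, so 0 of 1 measurable members passed, beside 3.31% of all genes. *Nnat* had 1076 UMIs (279 CPM, 262 to 296) in control and 74 UMIs (442 CPM, 347 to 555) in *Gli1 HHIPCKO*, and the log2 ratio was 0.67 (0.31 to 1.01). *Sorl1* had 38 and 10 UMIs (9.84 and 59.8 CPM), with a log2 ratio of 2.60 (1.43 to 3.64), and *Enho* 24 and 7 UMIs (6.21 and 41.9 CPM), with 2.75 (1.29 to 4.01). Both were below the 50 UMIs needed to be counted, although their intervals lie above the fold. The ratio was 0.83 (-1.51 to 2.48) for *Ngb* from 39 and 3 UMIs, 2.11 (-0.31 to 3.92) for *Eva1a* from 16 and 3, and 1.44 (-1.72 to 3.52) for *Wfdc1* from 17 and 2, each with an interval across 0. Control levels of *Sorl1*, *Eva1a* (4.14 CPM) and *Wfdc1* (4.40 CPM) were below those of control red cell-like cells, which had 18.8, 6.76 and 13.5 CPM and give the background, so these control levels are read as background. *Tceal6* was not detected in either library, where 3 cells, the limit used for a count of 0, would be 0.241% and 4.62%. This limits cells with a UMI at this depth, not cells that express the gene.

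The ALMF-like count changed with the naming of cells. It was 0 without a cell filter, 3 at resolution 0.5, 3 with each library clustered on its own, 3 without doublets, 3 with no gene held out, 6 at resolution 2 and 6 with cells named one by one. Placing failing clusters in their best class, an alternative chosen after seeing the data, also gave 6. In the same order, the shares of all genes past the fold were 2.87%, 1.82%, 2.01%, 1.93%, 1.76%, 1.99%, 2.26% and 3.13%. No statement on the set in ALMFs is made from the count of 0.

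The *Lnx1*-led cluster had 5 of 6 measurable members past the fold, but 14.5% of all genes passed it there, and its control cells had a median of 995 UMIs against 2746.5 in *Gli1 HHIPCKO*. Its control counts were 4 for *Ngb*, 1 for *Eva1a*, 3 for *Sorl1*, 3 for *Wfdc1* and 2 for *Enho*, so those ratios rest on few UMIs. Its *Gli1 HHIPCKO* cells are better measured, with 149 CPM of *Sorl1*, 777 CPM of *Nnat* and 12.8 CPM of *Tceal6*. Beside *Gli1 HHIPCKO* DMF-like cells, *Ngb* (65.2 CPM), *Wfdc1* (72.7 CPM) and *Tceal6* were lower there, and *Enho* (50.2 CPM) and *Nnat* were higher, without overlap. *Sorl1* and *Eva1a* (42.4 CPM) had intervals that overlap.

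The *Junb*-led cluster held cells of both mice in similar numbers, and 7 of 7 members passed the fold, beside 2.51% of all genes. *Eva1a* had 3 control and 119 *Gli1 HHIPCKO* UMIs, at a log2 ratio of 4.77 (3.19 to 7.07). *Nnat* had 320 and 1652 UMIs, at 1.83 (1.65 to 2.01). *Enho*, which missed the fold in DMF-like cells, had 17 and 84 UMIs, at 1.76 (1.00 to 2.61). In control only *Nnat* had 50 UMIs, so the other 6 members, such as *Tceal6* (2 and 68 UMIs), entered the count through *Gli1 HHIPCKO*. The cluster scores best for the myofibroblasts whose contrast chose the members, so its count is a description too and nothing is read from it.

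With ALMF-like and DMF-like cells summed, 7 of 7 members passed, beside 3.62% of all genes. Log2 ratios ran from 1.47 for *Enho* to 5.39 for *Tceal6*. ALMF-like cells were 1243 of 2266 in control and 65 of 1214 in *Gli1 HHIPCKO*, so the sum mixes the makeup of the class with the level per cell. These cannot be told apart in it.

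Outside the myofibroblasts the members split. In peribronchial or airway smooth muscle-like cells 2 of 5 measurable members passed the fold, beside 2.58% of all genes. *Ngb* had its highest level of any named class there, at 120.2 and 494 CPM in the control and *Gli1 HHIPCKO* mouse, with a control interval that overlaps that of mesothelial-like cells, and *Tceal6*, which also passed, had 40.1 and 104 CPM from 26 and 80 UMIs, and so reached 50 UMIs only with those of *Gli1 HHIPCKO*. *Wfdc1* had 236 and 358 CPM, without passing. In the control mouse these 3 genes were thus at higher levels in this smooth muscle class than in DMF-like cells.

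In adventitial fibroblast-like cells 3 of 5 measurable members passed, beside 1.82% of all genes, in alveolar fibroblast-like cells 3 of 6, beside 2.05%, and in pericyte-like cells 2 of 5, beside 1.98%. *Nnat* passed in each of these, with 18.3 and 62.7 CPM in the first, 25.8 and 103 CPM in the second and 25.8 and 104 CPM in the third. Red cell-like cells had 41.0 and 81.2 CPM of *Nnat*, so the adventitial levels and the control levels of all 3 classes were below that background. *Ngb* in alveolar fibroblast-like cells (4.10 and 26.9 CPM) and in adventitial fibroblast-like cells (7.07 and 25.3 CPM) had intervals that overlap those of red cell-like cells (2.90 and 26.6 CPM). *Wfdc1* in pericyte-like cells (4.77 and 24.7 CPM) was below the 13.5 and 27.1 CPM of red cell-like cells, and in alveolar fibroblast-like cells (9.95 and 36.6 CPM) its intervals overlap theirs. The counts of these 3 classes thus include members at or below background. *Enho*, which passed in adventitial fibroblast-like cells at a log2 ratio of 1.01 (0.48 to 1.55), was above it, with 14.8 and 29.8 CPM against 0.966 and 5.11 CPM. In control the passing members also had fewer than 50 UMIs each, apart from *Nnat* in adventitial fibroblast-like cells (57), so they reached the minimum only with the UMIs of *Gli1 HHIPCKO*. *Sorl1* did not pass, with log2 ratios of -0.24 (-0.47 to -0.00), -0.38 (-0.57 to -0.20) and -0.15 (-0.91 to 0.63). In mesothelial-like cells 0 of 4 passed, beside 1.55%, although *Wfdc1* had 305 and 383 CPM there.

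The named class with the highest level differed between members. For *Sorl1* it was ciliated-like cells, with 269 CPM, 242 to 298, in control and 252 CPM, 215 to 293, in *Gli1 HHIPCKO*. For *Enho* it was endothelial-like cells, with 106 and 104 CPM from 36 and 21 UMIs. These intervals overlap those of Schwann or glial-like cells in both libraries and that of ALMF-like cells in *Gli1 HHIPCKO*. For *Eva1a* it was pericyte-like cells, with 56.3 CPM, 42.8 to 72.6, and 77.9 CPM, 65.8 to 91.7, which overlap endothelial-like and Schwann or glial-like cells in both libraries and peribronchial-like cells in *Gli1 HHIPCKO*. For *Wfdc1* it was mesothelial-like cells, whose *Gli1 HHIPCKO* interval overlaps that of peribronchial-like cells. *Tceal6* had its highest level in peribronchial-like cells in both libraries, with a control interval that overlaps that of Schwann or glial-like cells. In *Gli1 HHIPCKO* its next class was DMF-like cells, at 54.7 CPM, with no overlap of the intervals. *Nnat* was highest in ALMF-like cells of control, at 279 CPM, with an interval that overlaps that of the few Schwann or glial-like cells, and in DMF-like cells of *Gli1 HHIPCKO*.

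AT2-like cells had 2 of 6 measurable members past the fold, beside 1.59% of all genes. *Ngb* had 21 and 155 UMIs (1.16 and 7.59 CPM) and *Wfdc1* 58 and 223 UMIs (3.21 and 10.9 CPM). Both genes were below their level in red cell-like cells in both libraries and are read as background, not as a difference in AT2-like cells. *Eva1a*, *Sorl1* and *Nnat* had log2 ratios of 0.02 (-0.17 to 0.21), -0.39 (-0.50 to -0.28) and -0.14 (-0.26 to -0.02). The higher *Eva1a* and *Sorl1* of DMF-like cells were not found in this class. *Nnat* had 59.1 and 53.7 CPM, against 41.0 and 81.2 CPM in red cell-like cells. Its *Gli1 HHIPCKO* level was thus below background, and its ratio is not read as one of AT2-like cells.

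Red cell-like cells, which should lack the members, give the level of RNA from other cells, at median depths of 5058 and 5300 UMIs. Of the 361 control and 328 *Gli1 HHIPCKO* cells, 3 and 29 came from a cluster found among the stromal clusters. Its next score was 0.31, for pericytes, and whether its cells hold stromal RNA of their own was not tested. Shares of red cell-like cells with a UMI were 0.831% in control and 9.45% in *Gli1 HHIPCKO* for *Ngb* and 0.277% and 2.13% for *Tceal6*. They were 3.32% and 5.79% for *Eva1a* and 3.60% and 10.98% for *Wfdc1*. For *Nnat* they were 8.86% and 17.1%, for *Sorl1* 8.86% and 13.4%, and for *Enho* 0.554% and 3.05%. All 7 shares were higher in *Gli1 HHIPCKO* in these cells too, although the log2 ratios of *Eva1a* and *Sorl1* had intervals across 0, and the part of free RNA in the ratios of other classes was not tested. Thinned shares in *Gli1 HHIPCKO* red cell-like cells were 5.15% for *Ngb*, 6.19% for *Wfdc1* and 9.28% for *Nnat*, below those of DMF-like cells. The control DMF-like share of *Eva1a* was at or below that of red cell-like cells and is read as background. Control DMF-like *Tceal6*, at 3.11 CPM (1.34 to 6.13), overlapped red cell-like cells, at 0.483 CPM (0.0122 to 2.69). Its control level is thus not set apart from background.

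**Figure D2:**
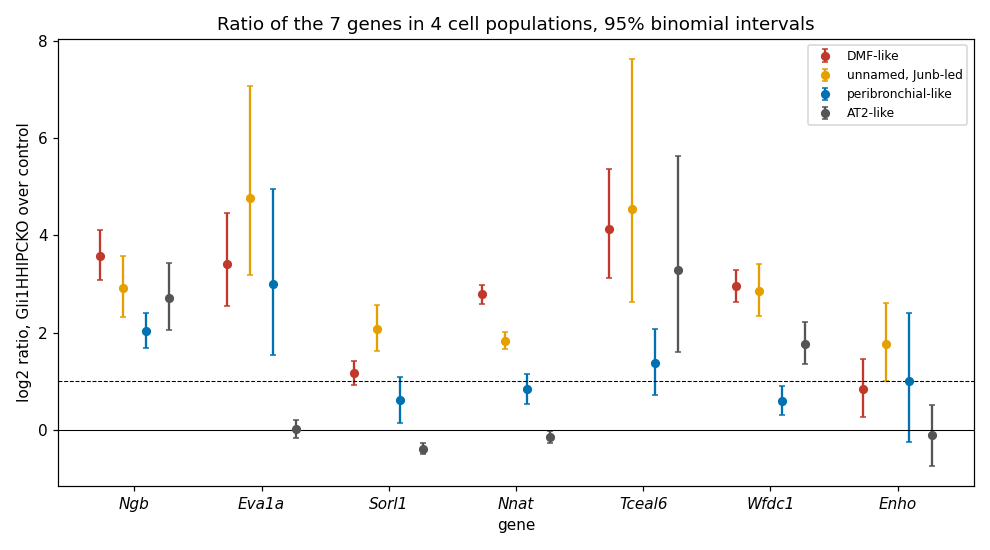
Log2 ratio of each gene, *Gli1 HHIPCKO* over control, in 4 cell populations, as points with 95% binomial intervals. The solid line is 0 and the dashed line is the fold, and in AT2-like cells *Ngb* sits at 2.71 and *Nnat* at -0.14.

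Members were then counted per cell at 2000 UMIs, over 1836 control and 978 *Gli1 HHIPCKO* myofibroblast-like cells. Cells in which no member was detected made up 67.0% in control and 16.9% in *Gli1 HHIPCKO*. With all clusters that score best for ALMF or DMF, named or not, these shares were 67.4% and 21.4%. In *Gli1 HHIPCKO*, 28.6% of myofibroblast-like cells held 2 members and 14.6% held 3, against 2.72% and 0.0545% in control. *Nnat* and *Wfdc1* were found together in 20.8% of *Gli1 HHIPCKO* cells, where the product of their shares is 19.7%. This is the pair found in the most cells. Of the 21 pairs in *Gli1 HHIPCKO* cells, 12 were above and 9 below the product, and in control 4 were above and 17 below. Counting error of these differences was not computed, and no order of pairs is read from them.

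**Figure D3:**
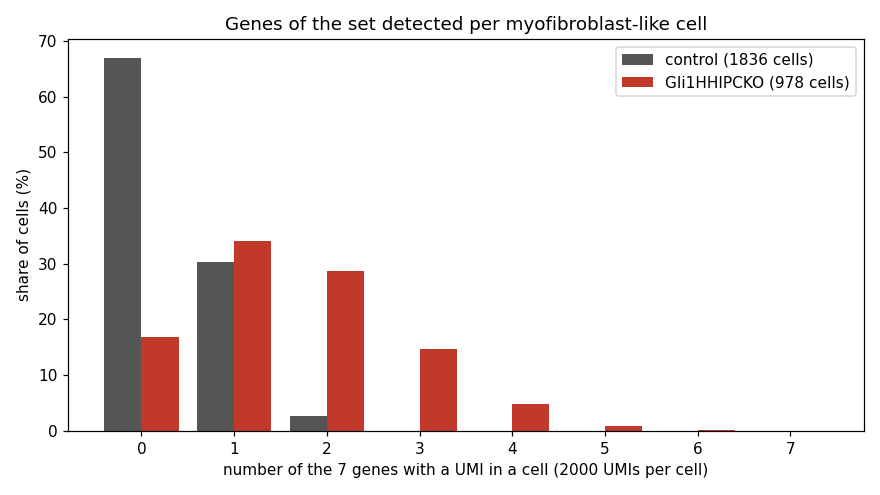
Share of myofibroblast-like cells (%) by the number of the 7 genes with a UMI, at 2000 UMIs per cell, for 1836 control (grey) and 978 *Gli1 HHIPCKO* cells (red). Cells with no member make up 67.0% and 16.9%. The contrast chose the members, and ALMF-like cells make up more of the control cells than of the *Gli1 HHIPCKO* cells.

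Within the *Gli1 HHIPCKO* library, where mouse and sex do not differ, cells with and without a UMI of *Hhip* were compared after thinning. *Ngb* was in 29.0% (25.1 to 33.2) of cells with *Hhip* and 20.1% (16.6 to 24.0) of those without, and *Sorl1* in 23.2% (19.6 to 27.2) and 23.6% (19.9 to 27.7). *Ngb* was thus more often found beside *Hhip*, and *Sorl1* did not differ at this depth. *Wfdc1* was in 42.2% (38.8 to 45.7) of cells with a UMI of *Igf1*, a growth factor gene the study follows, and in 27.3% (20.4 to 35.0) of those without. *Ngb* for *Hhip* and *Wfdc1* for *Igf1* were the only members whose intervals did not overlap, 1 of 7 in each split. Of 6393 genes with 50 UMIs there, 0.751% were higher in cells with *Hhip* by this rule and 0.704% in cells with *Igf1*. With all clusters that score best for ALMF or DMF, 2 of 7 were higher in cells with *Hhip*, beside 1.94% of all genes, and 5 of 7 in cells with *Igf1*, beside 2.24%. The count for *Igf1* thus changes with the cells included, and the part of cluster makeup in it was not tested. Only 64 *Gli1 HHIPCKO* cells held a UMI of *Gli1*, and *Ngb* was in 25.0% of these and 24.6% of the others, with intervals that overlap. No member had intervals apart in this split, beside 0.798% of all genes higher in cells with *Gli1*.

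In control myofibroblast-like cells *Sorl1* was in 8.85% (7.10 to 10.9) of cells with *Hhip* and 2.42% (1.52 to 3.64) of those without, while *Nnat* was in 16.8% (14.5 to 19.4) and 26.7% (23.9 to 29.7). The order was thus opposite for these genes. *Wfdc1* was higher in cells with *Hhip* too. Of 3 members with 50 UMIs 2 were thus higher and 1 lower, beside 4.51% and 4.94% of all genes. Control ALMF-like and DMF-like cells differ in *Hhip*, with 300.4 and 2473 CPM, and their part in this split was not tested.

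Related genes did not all move with the members in myofibroblast-like cells. Of all measured genes there, 3.62% passed the fold upward and 3.33% downward. Of 19 measured imprinted genes beside *Nnat*, 5 passed upward and 2 downward, among them *Zim1* (1.87 and 26.5 CPM) and *Peg3* (91.0 and 443 CPM). Of 6 TCEAL and BEX genes beside *Tceal6* 1 passed, *Tceal3* (25.0 and 80.8 CPM), and of 7 VPS10 receptor and retromer genes beside *Sorl1* 1 passed, *Sorcs2* (6.38 and 37.2 CPM). With 1 of 6 and 1 of 7, the TCEAL and BEX and the VPS10 lists are too small to set against 3.62%, and nothing is read from them. In control *Sorcs2* had 41 UMIs and *Zim1* 12, against 132 and 94 in *Gli1 HHIPCKO*. Both reached the UMI minimum only with the UMIs of *Gli1 HHIPCKO*, unlike *Peg3* and *Tceal3*, with 585 and 161 control UMIs. All list ratios come from ALMF-like and DMF-like cells summed, so makeup of the class and level per cell are not separated in them. Of 2 measured WAP domain genes *Wfdc1* passed and *Wfdc2* did not (41.5 and 35.2 CPM), and *Gpr19*, the proposed adropin receptor, had 8.09 and 9.86 CPM.

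Beside the same shares over all genes, 3.62% upward and 3.33% downward, 7 of 9 contractile genes passed upward, with *Myh11* at 192 and 576 CPM, and of 10 immediate early and stress genes 1 passed, *Ier3* (75.3 and 210.1 CPM). Of 10 hedgehog pathway genes 3 passed upward and 3 downward, or 2 downward with either rescaling of the totals. The deleted gene *Hhip* is among the downward genes, at a log2 ratio of -1.41. Of 5 X-linked escape genes 1 passed, *Ddx3x* (56.1 and 115 CPM). Of 5 measured sex-linked genes 1 passed upward and 4 downward.

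Several members are known from neurons, so neuron markers were examined. The 5 neuron markers had 2 UMIs in control and 8 in *Gli1 HHIPCKO* myofibroblast-like cells, with *Snap25* and *Stmn2* at 0 in both. Schwann or glial markers had 9 and 6 UMIs, and neuroendocrine markers 60 and 21, of which 53 and 21 were *Syp*. Neuron markers were near 0 where *Ngb* had 568 UMIs, and the part of neurons in the counts of the members was not tested. Markers of some other classes were not near 0 in these cells. Those of peribronchial or airway smooth muscle had 204 and 607 CPM and those of vascular smooth muscle 75.9 and 215 CPM. Those of DMFs had 5420.4 and 9924 CPM and those of ALMFs 5776 and 3173 CPM. Adventitial fibroblast markers had 374 and 695 CPM, pericyte markers 355 and 565 CPM and alveolar fibroblast markers 144 and 255 CPM. AT2 markers were lower in *Gli1 HHIPCKO*, with 2494 and 1609 CPM, and red cell markers had 477 and 475 CPM. Whether the members follow these markers cell by cell was not tested.

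Ratios were also computed for the genes beside the members. *Nnat* lies within *Blcap* on the opposite strand, and *Blcap* had a log2 ratio of -0.35 (-0.62 to -0.09) in myofibroblast-like cells. *Cntfr*, 17174 bases from *Enho*, had -0.73 (-0.94 to -0.52), and *Pomt2*, 4322 bases from *Ngb*, had -0.03 (-0.53 to 0.45). Of the 14 nearest measured genes, 0 passed the fold upward, beside 3.62% of all genes. With so few genes, 0 is near that share and nothing is read from it.

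Over 13 classes and 2 libraries, the genes whose levels were most like those of *Ngb* were *Nrg2* (0.87), *Egln3* (0.86) and *Ak5* (0.84), with Pearson's r in brackets. For *Tceal6* they were *Otof* (0.97), *Hpse2* (0.94) and *Grin2a* (0.93), and for *Wfdc1* *Nrg2* (0.83), *Igf2* (0.81) and *Sema3d* (0.80). *Ngb* and *Wfdc1* thus had the same gene first. For *Nnat* they were *Greb1* (0.83), *Sntg2* (0.82) and *P4ha3* (0.80), for *Sorl1* *Pdxk* (0.81), *Dusp14* (0.78) and *Rab3d* (0.77), and for *Eva1a* *Slc35g2* (0.71), *St6galnac3* (0.69) and *Arrdc2* (0.67). For *Enho* they were *3830406C13Rik* (0.86), *Rasal2* (0.86) and *Gm37494* (0.81). The 26 points share 2 libraries and are not independent, and no other member was among the 3 genes most like any member.

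RefSeq promoters on GRCm38.p6 were found for 4 members, *Eva1a*, *Nnat*, *Sorl1* and *Tceal6*, in 5 windows of 300 bases. Both strands were searched. The hexamer CACGTG, an E-box, matched the window of *Eva1a*, that of *Tceal6* and 1 of 2 of *Sorl1*, and it occurs in 7.15% of 32851 promoters. GACCACCCA (GLI), TATAAA and the CArG box matched none of the 5, and they occur in 0.253%, 13.6% and 1.63%. The 250 bases before the RefSeq start are shown for the 3 genes with an E-box, which is in capitals. The *Tceal6* window held 2 matches, and the one at base 257 lies past the bases shown. The choice of members did not use the E-box. The stretches lie at chr6:82041378-82041627 (plus strand), chr9:42124298-42124547 (minus) and chrX:135210688-135210937 (minus). For *Eva1a* the RefSeq start differs from that of GENCODE, and the stretch lies inside the gene as placed above.
Eva1a: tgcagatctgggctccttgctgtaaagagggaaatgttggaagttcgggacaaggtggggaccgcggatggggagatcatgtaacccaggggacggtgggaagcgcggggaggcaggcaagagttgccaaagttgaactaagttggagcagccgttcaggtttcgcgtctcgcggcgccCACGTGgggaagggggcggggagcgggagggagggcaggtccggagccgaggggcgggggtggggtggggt
Sorl1: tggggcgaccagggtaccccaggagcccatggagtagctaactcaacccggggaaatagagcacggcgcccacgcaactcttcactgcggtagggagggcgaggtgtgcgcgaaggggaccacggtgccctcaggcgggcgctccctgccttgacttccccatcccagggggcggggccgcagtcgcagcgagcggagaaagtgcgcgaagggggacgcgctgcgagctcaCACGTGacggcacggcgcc
Tceal6: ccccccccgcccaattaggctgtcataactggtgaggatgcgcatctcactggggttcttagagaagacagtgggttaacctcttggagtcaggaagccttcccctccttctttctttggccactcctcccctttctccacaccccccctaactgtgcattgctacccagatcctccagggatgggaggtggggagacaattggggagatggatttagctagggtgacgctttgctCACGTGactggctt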

How the data were processed

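The authors deposited raw UMI counts per gene and cell, aligned to mm10 and counted with CellRanger 6.1.0 per the file headers. The labels name a 3′ kit and the study's methods a 5′ kit, and these sources also differ in the CellRanger version and the sequencer. The members and lists were chosen with earlier results of these data known.

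Barcodes with 200 to 6000 genes and no more than 10% mitochondrial UMIs were retained (10917 control, 12115 *Gli1 HHIPCKO*). Counts were log-normalised to a total of 10000 per cell. Clustering used 2000 variable genes, 30 components, 20 neighbours and Leiden resolution 1 on both libraries, without integration or doublet removal, and stromal clusters were clustered again. The members and *Hhip* were held out. A first clustering that held out further genes by mistake was discarded before any value of a member was computed.

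A name needed a mean standardised marker score of 0.3, 3 markers and most of the list found in 10% of cells, and a marker among 10 leading genes. It also needed no other class with more leading markers, no other lineage above both 0.15 and 0.5 of the best score, and no second class above 0.7 of it. The values 0.3, 3, 10% and 0.7 were taken over from earlier processing of these data. Other terms of the rule were revised 2 times after clusters were seen and before values of the members were computed. The rule was kept when the ALMF-like count came out as 0. Fibroblast markers come largely from the study's own table. No cluster took the vascular smooth muscle name.

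UMIs were summed per class and library, and ratios have exact binomial, levels exact Poisson and shares Clopper-Pearson intervals. A count of 0 was set to 3 counts for ratios. Genes were named by a rule: the members, up to 4 genes per list with the largest absolute log2 ratio, nearest measured neighbours and the 3 most correlated genes on log2(CPM + 10). The genes that stand for unnamed clusters were picked from the cluster tables once these had been seen. The alternatives change the cell filter, resolution, joint clustering, doublets, genes held out, naming, totals, averaging, depth, UMI minimum and fold. Ratios were tested on simulated data. GENCODE vM21 gave positions. Versions were Python 3.11.15, with numpy 2.4.6, scipy at 1.17.1, pandas at 2.3.3, scikit-learn 1.9.0, igraph at 0.11.9, leidenalg at 0.10.2 and, for figures, matplotlib 3.10.9.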

Additional observations from a re-analysis of the deposited data

How the results depend on the processing

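The count of members past the fold in ALMF-like cells was 0 and moved most. It was 3 at resolution 0.5, 6 at resolution 2, 3 with each library clustered on its own, 3 without doublets, 3 with no gene held out, 6 with cells named one by one (395 of 5643 lay within 0.1 of the boundary) and 1 at a fold of 1.5. It was 6 with failing clusters put in their best class, which was chosen after seeing the data. It was 0 without a cell filter and at a fold of 4. Under the alternatives that change the cells, the share of all genes past the fold there ran from 1.76% to 3.13%. *Gli1 HHIPCKO* ALMF-like cells numbered 65, and 79 to 1081 under the alternatives that rename cells. The cause was not tested.

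The share of *Gli1 HHIPCKO* myofibroblast-like cells with no member, 16.9%, rose to 21.3% at resolution 0.5, 23.1% at resolution 2, 22.4% with each library on its own, 22.7% without doublets, 19.5% with no gene held out, and 21.4% with cells named one by one or failing clusters in their best class. The cause was not tested. In control this share stayed within its interval under the 8 alternatives run.

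The other counts stayed within 1.5 times, with 5 to 7 members in DMF-like cells, 5 to 7 in myofibroblast-like cells and 2 in AT2-like cells. Over the other stromal classes the sum was 8 to 12, with a member counted in each class where it passed. Under the alternatives that change the cells, 2.39% to 3.01% of all genes passed in DMF-like cells. In myofibroblast-like cells 2.79% to 3.60% passed. Such shares were not computed at folds of 1.5 and 4, nor for the other classes under alternatives. Nothing is read from these counts. Of 324 single log2 ratios under alternatives, 29 left the interval of the reported value, and 0 of those past the fold changed sign. In DMF-like cells *Enho* ran from 0.83 to 1.36, across the fold, *Sorl1* from 1.04 to 1.39, *Ngb* from 2.82 to 3.68, *Eva1a* from 3.36 to 4.12, *Tceal6* from 3.46 to 4.39, *Nnat* from 2.33 to 2.94 and *Wfdc1* from 2.43 to 3.03. In ALMF-like cells the ranges were wider: *Nnat* ran from 0.19 to 1.41 and *Ngb* from 0.23 to 2.54, both across the fold, *Wfdc1* from 1.09 to 3.79, *Sorl1* from 1.13 to 3.80, *Eva1a* from 2.09 to 3.40 and *Enho* from 2.36 to 3.44. The cause was not tested. Of 378 shares of cells 73 left their interval, of 672 shares in the splits by gene 87, and of 30 background shares 20. The background share in ALMF-like cells, 3.31%, was 8.72% at a minimum of 20 UMIs and 0.759% at 200. Pairs, neighbours, similar genes and marker sums were not recomputed under the alternatives.

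Each group has 1 mouse, so differences between mice, sex among them, cannot be told apart from the deletion. Depth limits *Tceal6*, *Eva1a* and *Enho* most, with control counts of 8, 11 and 35 UMIs in DMF-like cells.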
